A study of Mus musculus with 7 samples.

Results

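The genes described here are 10 regulators of mRNA decay and stress granules in mouse embryonic fibroblasts (MEFs), namely Zfp36, Zfp36l1, Zfp36l2, Zc3h12a, Btg1, Elavl1, G3bp1, G3bp2, Tia1 and Tial1. They were taken by symbol from the 49382 genes of the deposited table, where each stands on 1 row, and all 10 were among the 12909 genes kept for a mean over the libraries of 2 TPM or more (TPM divides reads by transcript length and scales each library to the same total). The cells were wild type MEFs from embryos whose heads and fetal livers had been removed, grown for several passages in DMEM. The 7 RNA-seq libraries came from untreated control cells, from cells in glucose-free or glutamine-free DMEM for 10 hours, from cells at 0.1% oxygen for 10 hours (hypoxia), from cells given 1 μM thapsigargin for 10 hours (ER stress), and from cells given 10 μM sodium arsenite (oxidative stress) or 100 mM NaCl (osmotic stress) for 3 hours. Each condition had 1 library, so no difference can be set against the spread between replicates, no p-value is given, and neighbouring levels cannot be told apart. The labels give no time of collection for the control cells.

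AU-rich elements in the 3′ untranslated region (UTR) mark many short-lived mRNAs of growth factors, cytokines and immediate early genes. Zfp36 (tristetraprolin) and its relatives Zfp36l1 and Zfp36l2 are zinc finger proteins that bind these elements and recruit the deadenylase complex CCR4-NOT, Zc3h12a (Regnase-1) is an endonuclease that cleaves stem loops in inflammatory mRNAs, and Btg1 binds the deadenylase and promotes shortening of the poly(A) tail. Elavl1 (HuR) binds the same class of elements and stabilizes many transcripts. G3bp1 and G3bp2 are scaffolds, and Tia1 and Tial1 are RNA-binding proteins, of the stress granules that form when translation initiation is blocked, for which arsenite is a standard laboratory trigger. The libraries measure the mRNAs of these regulators, not their proteins, granules or decay rates.

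The mRNAs of the 3 Zfp36 relatives themselves carry AU-rich elements, and their sites are shown because transcripts of this kind are what these proteins bind. The letters TATTTAT, the DNA form of the element, were searched on the sense strand of the longest annotated 3′ UTR of each gene (GENCODE M21, GRCm38), counting overlapping copies. They occurred 3 times in Zfp36 (a 3′ UTR of 774 bases), 3 times in Zfp36l1 (1835 bases), 3 times in Zfp36l2 (1822 bases) and 8 times in Elavl1 (4218 bases), once each in G3bp1, G3bp2, Tia1 and Tial1, and 0 times in Zc3h12a and Btg1. Of 11229 kept protein-coding genes with an annotated 3′ UTR, of median length 1221 bases, 31.4% held the letters and 4.25% held them 3 or more times. The 3 sites of Zfp36 (minus strand, chr7:28376969-28376991, chr7:28376954-28376976 and chr7:28376929-28376951), the first site of Zfp36l1 (minus strand, chr12:80108425-80108447), the first of Zfp36l2 (minus strand, chr17:84184917-84184939) and the second of Elavl1 (minus strand, chr8:4285787-4285809), which lies in a run of overlapping copies, read as follows, with the element in capitals.
Zfp36 site 1: gggcccttTATTTATgacgactt
Zfp36 site 2: gacgacttTATTTATtgtattaa
Zfp36 site 3: ttttatagTATTTATatatattg
Zfp36l1 site 1: tcaaaacgTATTTATtgccaaac
Zfp36l2 site 1: atttaactTATTTATtatcttgt
Elavl1 site 2: aaattattTATTTATttatttat

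Each condition was compared with the control as the difference in log2(TPM + 1), a scale on which the fold of weakly expressed genes comes out too small, and differences beyond 2-fold were counted. The 6 comparisons share the 1 control library. Of the 60 values of the 10 regulators in the 6 conditions, 4 passed 2-fold. Zfp36 rose in oxidative stress, Btg1 rose in osmotic stress and in ER stress, and Zfp36l1 fell in ER stress. The counts were 1 of 10 up and 0 down in oxidative stress, 1 up and 0 down in osmotic stress, 1 up and 1 down in ER stress, and 0 in glucose depletion, glutamine depletion and hypoxia. Over all kept genes the shares past 2-fold were 3.94% up and 4.85% down in oxidative stress, 3.08% up and 8.76% down in osmotic stress, and 8.6% up and 11.0% down in ER stress. They were 1.83% up and 2.41% down in glucose depletion, 3.21% up and 3.21% down in glutamine depletion, and 3.57% up and 2.64% down in hypoxia. One gene of 10 is close to these shares, so the counts do not set the regulators apart from other genes, and the values of the single genes are what the data hold.

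**Figure D1:**
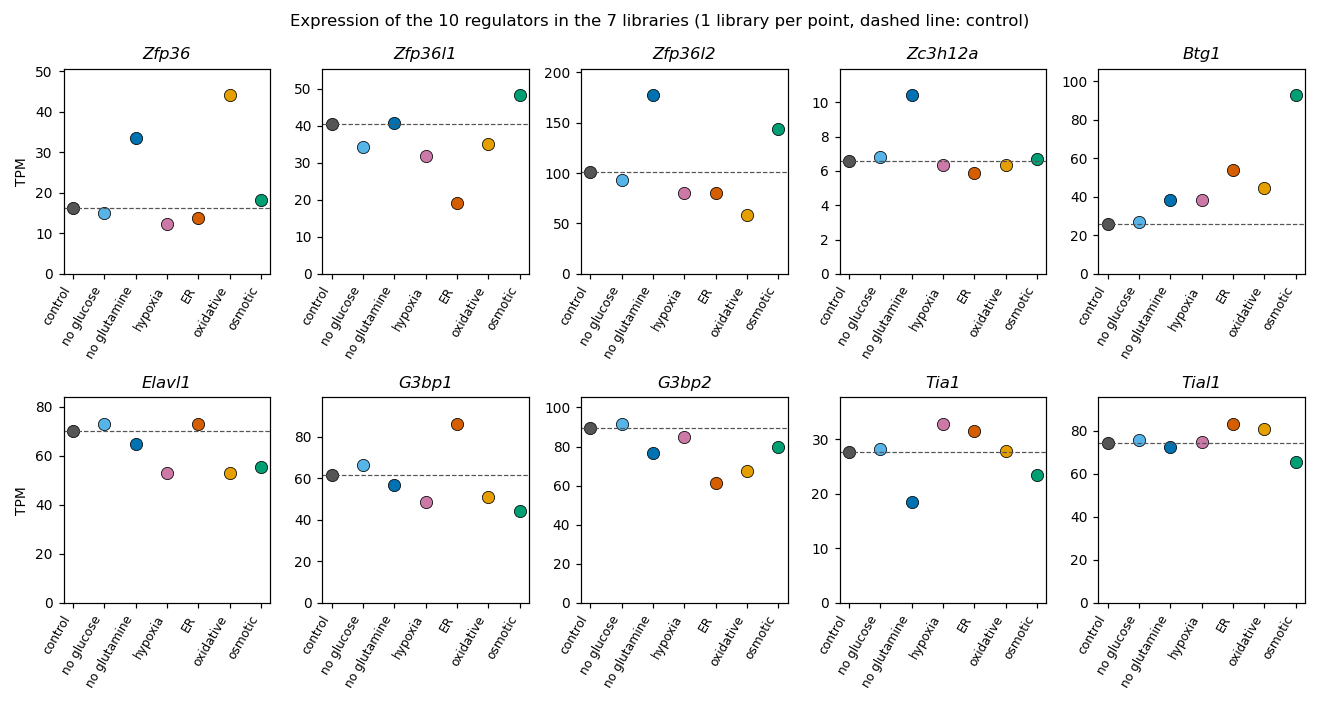
TPM of each regulator (y axis, starting at 0) in the 7 libraries (x axis), with 1 point per library and a dashed line at the control level. Zfp36 stands highest in oxidative stress (44.0 TPM) and glutamine depletion (33.4 TPM), Btg1 in osmotic stress (92.8 TPM), and G3bp1 in ER stress (86.0 TPM), while Tial1 stays between 65.6 and 83.0 TPM.

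Zfp36 (ENSMUSG00000044786, chromosome 7 from 28376784 to 28380253, minus strand) is an immediate early gene that is itself an inhibitor of cytokine output. It was at 16.3 TPM in the control, 15.0 in glucose depletion, 33.4 in glutamine depletion, 12.3 in hypoxia, 13.7 in ER stress, 44.0 in oxidative stress and 18.1 in osmotic stress. Its level was highest in oxidative stress, 2.70-fold the control (log2 change 1.38, the 97.4 percentile of all kept genes in that library), and next in glutamine depletion, 2.05-fold the control (0.99, the 96.7 percentile). The value in glutamine depletion lies on the 2-fold line, since it was 1.03 with a pseudocount of 0.1 TPM, 1.08 after centring on the median of all genes and 0.85 with a pseudocount of 5 TPM. The other 4 conditions lay between -0.38 in hypoxia and 0.14 in osmotic stress. An antisense transcript, Gm44710, shares 125 exon bases with Zfp36 and was between 3.23 TPM in oxidative stress and 6.02 TPM in the control. It was thus lowest where Zfp36 was highest, but at 5.88 TPM in glutamine depletion, where Zfp36 was next highest. Kallisto at its default setting does not use strand, so reads from the shared bases cannot be assigned by it.

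The promoter of Zfp36 is shown around the single motif of those searched that was found there. The bases before the RefSeq start (GRCm38.p6) were searched on both strands, over 250 bases, for the CArG box of serum response factor, the AP-1 site TGANTCA, the core TGACG of the cAMP response element, the FOXO site GTAAACA, the ATF4 composite site TGATGNAA and the NFAT5 core TGGAAA. Zfp36l2 has no entry in the promoter table used. Zfp36 was the 1 regulator with a CArG box, which 1.47% of 32851 promoters hold. Zfp36l1 held an AP-1 site (6.75% of promoters), Btg1 held the FOXO site and the core of the cAMP response element, and no regulator held the ATF4 composite site (3.45%) or the NFAT5 core (18.6%), which says only that these letters are not in these windows. The RefSeq start of Zfp36 used here is not the 5′ end of its GENCODE interval (28380253), so the stretch shown lies inside that interval. The CArG box of Zfp36 lies 58 to 49 bases before the RefSeq start, in capitals in this stretch (minus strand, chr7:28379267-28379296).
Zfp36 promoter: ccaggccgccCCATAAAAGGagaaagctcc

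Zfp36l2 (ENSMUSG00000045817, chromosome 17 from 84183931 to 84187947, minus strand) was the most abundant of the 10 in the control library. It was at 101 TPM in the control, 93.5 in glucose depletion, 177 in glutamine depletion, 80.5 in hypoxia, 80.6 in ER stress, 58.6 in oxidative stress and 144 in osmotic stress. No value passed 2-fold against the control. The highest was in glutamine depletion (log2 change 0.80, the 95.4 percentile) and the lowest in oxidative stress (-0.78, the 8.96 percentile), so in the arsenite library Zfp36 and Zfp36l2 stood on opposite sides of the control. Zfp36l1 (ENSMUSG00000021127, chromosome 12 from 80107754 to 80113013, minus strand) was at 40.4 TPM in the control, 34.2 in glucose depletion, 40.7 in glutamine depletion, 31.7 in hypoxia, 19.1 in ER stress, 35.2 in oxidative stress and 48.2 in osmotic stress. It fell in ER stress to 0.472-fold of the control (log2 change -1.04, the 10.1 percentile), a library in which 11.0% of all kept genes fell as far. This value was -0.91 with a pseudocount of 5 TPM and -0.85 against the median of the 7 libraries, both short of 2-fold. Beside it, the summed level of 10 fibroblast marker genes was also lowest in ER stress, at 8770 TPM, and reached 16300 TPM among the libraries. The part of this shift in the Zfp36l1 value was not tested, and in such bulk samples fewer cells of a type and less RNA per cell cannot be told apart.

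Because the 3 relatives share a role, their shares within a library were compared, a measure that does not depend on how libraries are scaled. The summed level of the family does depend on that scaling. This sum was 158 TPM in the control, 143 in glucose depletion, 251 in glutamine depletion, 124 in hypoxia, 113 in ER stress, 138 in oxidative stress and 210 in osmotic stress. Zfp36l2 made up 64.1% of the sum in the control and between 64.7% and 71.1% in the conditions other than oxidative stress, where it made up 42.5%. Zfp36 made up 31.9% in oxidative stress, against 10.3% in the control and between 8.63% and 13.3% in the other conditions. Oxidative stress thus had a family total not far from that of the control with a different make-up, while glutamine depletion had the highest total, with Zfp36 and Zfp36l2 above the control and Zfp36l1 at its level.

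Zc3h12a (ENSMUSG00000042677, chromosome 4 from 125118423 to 125127840, minus strand) had the lowest level of the 10. It was at 6.59 TPM in the control, 6.82 in glucose depletion, 10.4 in glutamine depletion, 6.36 in hypoxia, 5.86 in ER stress, 6.33 in oxidative stress and 6.67 in osmotic stress. Glutamine depletion stood above the other 6 libraries, which lay between 5.86 and 6.82 TPM. The log2 change there was 0.59 (the 92.6 percentile), which did not pass 2-fold and was 0.41 with a pseudocount of 5 TPM. The other 5 conditions were within 0.15 of 0 on the log2 scale.

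Btg1 (ENSMUSG00000036478, chromosome 10 from 96617006 to 96622809, plus strand), known as an antiproliferative gene, was lowest in the control and above it in 6 of 6 conditions. It was at 25.9 TPM in the control, 26.9 in glucose depletion, 38.5 in glutamine depletion, 38.5 in hypoxia, 54.2 in ER stress, 44.9 in oxidative stress and 92.8 in osmotic stress. Osmotic stress stood apart from the other libraries, at 3.58-fold the control (log2 change 1.80, the 98.5 percentile). ER stress was at 2.09-fold (1.04, the 92.0 percentile), just past the threshold, and was 0.94 with a pseudocount of 5 TPM and 0.99 against the glucose depletion library. Since each change of Btg1 is taken against the lowest library, the median of the 7 libraries was also used as the reference, which gave 1.25 in osmotic stress, 0.48 in ER stress and -0.51 in glucose depletion.

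A stretch of the Btg1 promoter is shown because it held motifs of 2 kinds among those searched, both read on the opposite strand, so that the FOXO site appears as TGTTTAC and the core of the cAMP response element as CGTCA. The FOXO site is held by 3.17% and the core by 17.8% of all promoters. The stretch covers 213 to 94 bases before the start (plus strand, chr10:96616788-96616907), with the motifs in capitals. A match of letters is not a bound site, and the libraries hold no binding data.
Btg1 promoter: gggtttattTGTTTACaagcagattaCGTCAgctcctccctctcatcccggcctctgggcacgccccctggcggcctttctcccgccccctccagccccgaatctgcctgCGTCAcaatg

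Btg2, the close relative of Btg1 and an early response gene, went the other way in osmotic stress. Its level was 50.8 TPM in the control, 53.8 in glucose depletion, 99.8 in glutamine depletion, 41.2 in hypoxia, 47.9 in ER stress, 106 in oxidative stress and 20.7 in osmotic stress. It rose in oxidative stress (log2 change 1.05) and fell in osmotic stress (-1.26). The ratio of Btg1 to Btg2 within a library was 0.509 in the control and 4.48 in osmotic stress, and lay between 0.386 and 1.13 in the other conditions. The plot of relatives within a library sets this ratio beside those of the Zfp36 and G3bp genes.

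**Figure D2:**
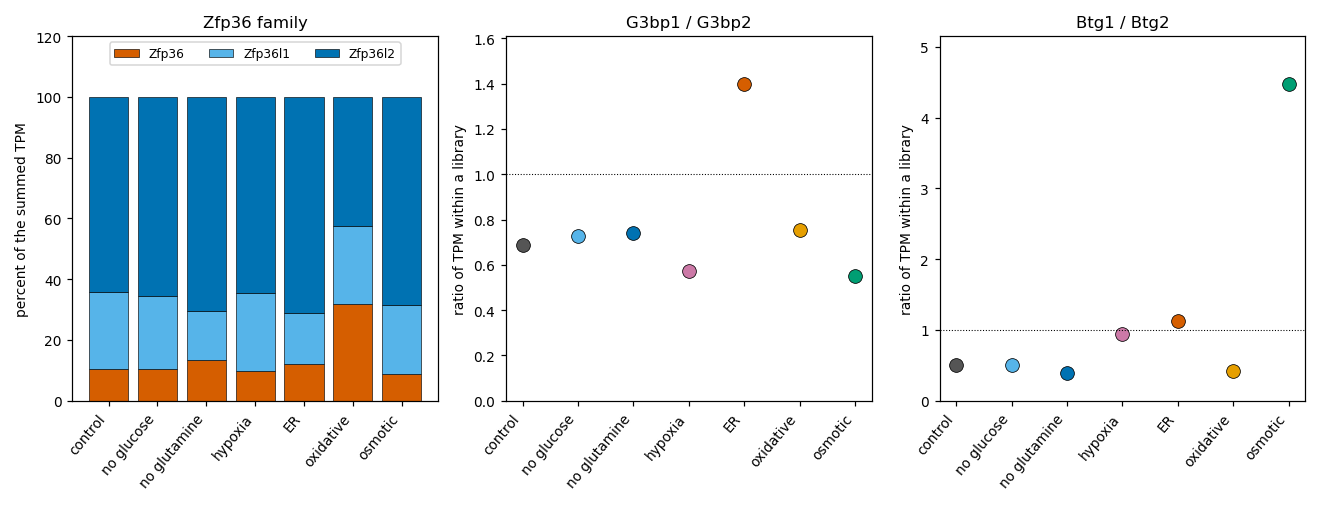
Relatives compared within each library, so that library scaling cancels. Left, stacked bars of the share (%) of Zfp36, Zfp36l1 and Zfp36l2 in their summed TPM, with Zfp36 at 31.9% in oxidative stress and 8.63% to 13.3% elsewhere. Middle and right, the ratio of TPM of G3bp1 to G3bp2 and of Btg1 to Btg2 (1 point per library, dotted line at a ratio of 1), highest in ER stress (1.40) and in osmotic stress (4.48).

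The 24 values of the stress granule genes G3bp1, G3bp2, Tia1 and Tial1 against the control lay between 0.667-fold and 1.40-fold, and 0 passed 2-fold. With the shares of all kept genes past 2-fold given above, from 1.83% up and 2.41% down in glucose depletion to 8.6% up and 11.0% down in ER stress, 0 of 4 genes in a condition is near the background and does not set them apart. In the arsenite library, G3bp1 was at 0.825-fold, G3bp2 at 0.752-fold, Tia1 at 1.00-fold and Tial1 at 1.09-fold of the control, and the median absolute log2 change of all kept genes there was 0.29. The depth of the libraries is unknown and each value rests on 1 library, so differences of this size cannot be told from none.

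The levels of G3bp1 and G3bp2 are given as a description within this limit. G3bp1 (ENSMUSG00000018583, chromosome 11 from 55469685 to 55504838, plus strand) was at 61.5 TPM in the control, 66.2 in glucose depletion, 56.9 in glutamine depletion, 48.6 in hypoxia, 86.0 in ER stress, 50.8 in oxidative stress and 44.2 in osmotic stress. G3bp2 (ENSMUSG00000029405, chromosome 5 from 92052146 to 92083719, minus strand) was at 89.6 TPM in the control, 91.4 in glucose depletion, 76.7 in glutamine depletion, 84.9 in hypoxia, 61.5 in ER stress, 67.4 in oxidative stress and 80.0 in osmotic stress. ER stress was the highest library for G3bp1 (log2 change 0.48, the 77.0 percentile) and the lowest for G3bp2 (-0.54, the 23.1 percentile), and neither value passed 2-fold. The ratio of G3bp1 to G3bp2 was 1.40 in ER stress, against 0.686 in the control and 0.552 to 0.753 in the other 5 conditions. ER stress was the 1 library in which G3bp1 was the more abundant of the pair.

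Tia1 (ENSMUSG00000071337, chromosome 6 from 86404219 to 86433405, plus strand) was at 27.7 TPM in the control, 28.3 in glucose depletion, 18.5 in glutamine depletion, 32.8 in hypoxia, 31.6 in ER stress, 27.8 in oxidative stress and 23.5 in osmotic stress. Glutamine depletion was its lowest library (log2 change -0.56, the 11.8 percentile), which did not pass 2-fold. Tial1 (ENSMUSG00000030846, chromosome 7 from 128439777 to 128461717, minus strand) was at 74.1 TPM in the control and between 65.6 TPM in osmotic stress and 83.0 TPM in ER stress, the smallest range of the 10 (0.34 log2 units). Tial1 was 2.67 times as abundant as Tia1 in the control and 3.91 times in glutamine depletion. Elavl1 (ENSMUSG00000040028, chromosome 8 from 4285382 to 4325413, minus strand) was at 70.1 TPM in the control, 72.9 in glucose depletion, 64.9 in glutamine depletion, 52.9 in hypoxia, 72.8 in ER stress, 53.2 in oxidative stress and 55.3 in osmotic stress. Its log2 changes lay between -0.40 in hypoxia and 0.06 in glucose depletion. Elavl1 shares 204 exon bases with Ccl25 on the other strand, which was between 3.56 and 9.75 TPM.

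**Figure D3:**
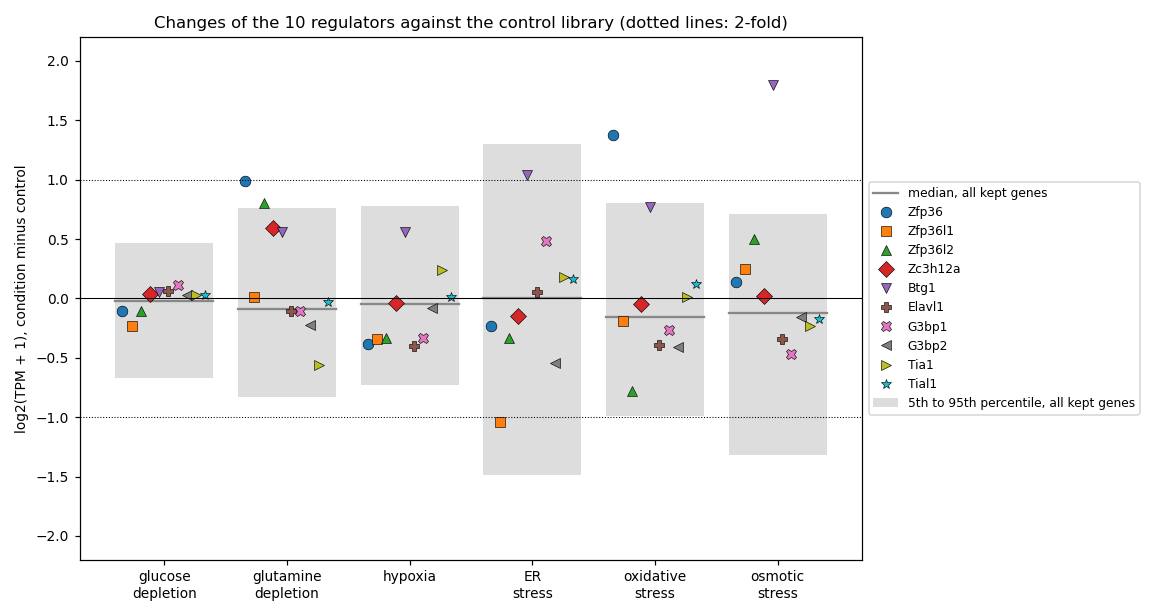
Change of log2(TPM + 1) against the control (y axis) for each regulator (symbols) in the 6 conditions (x axis), over a grey bar from the 5th to the 95th percentile of the 12909 kept genes, a grey line at their median, and dotted lines at 2-fold. Zfp36 in oxidative stress (1.38) and Btg1 in osmotic stress (1.80) lie above the grey bars, as do Zfp36 (0.99) and Zfp36l2 (0.80) in glutamine depletion, and in glucose depletion all 10 regulators lie between -0.23 and 0.11.

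In glucose depletion the 10 regulators lay between -0.23 and 0.11 of the control on the log2 scale, with 7 above and 3 below. Their median absolute change there was 0.05, against 0.16 over all kept genes. In glutamine depletion, the other 10 hour nutrient condition, it was 0.39 against 0.25. Compared directly, without the control library, glutamine depletion had Zfp36 at 2.22-fold of the glucose depletion level (log2 difference 1.10), Zfp36l2 at 1.90-fold (0.91), Zc3h12a at 1.52-fold (0.54) and Tia1 at 0.655-fold (-0.58). Of the 10 regulators 1 passed 2-fold upward and 0 downward, where 3.12% and 2.37% of all kept genes did.

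The 2 treatments of 3 hours were also compared with each other. Against oxidative stress, osmotic stress had Zfp36l2 at 2.45-fold (log2 difference 1.28, the 97.5 percentile), Btg1 at 2.07-fold (1.03, the 96.3 percentile) and Zfp36 at 0.412-fold (-1.23, the 5.65 percentile). Thus 2 of 10 regulators passed 2-fold upward and 1 downward, where 3.9% and 7.86% of all kept genes did. The other 7 regulators differed by at most 0.44, the value of Zfp36l1. Zfp36l2 was the more abundant of the pair in both libraries, and the differences of Zfp36 and Zfp36l2 between them had opposite signs.

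The genes most alike in pattern were sought for the 4 regulators whose log2(TPM + 1) spanned at least 1 unit, by Pearson r over the 7 libraries among the 8819 genes averaging 10 TPM or more. For Zfp36 they were Gprc5a (r = 0.986), Sipa1l2 (0.972) and Dusp4 (0.972), the last a phosphatase that turns off ERK. Gprc5a was at 77.2 TPM in the control, 189 in glutamine depletion and 212 in oxidative stress, and Dusp4 at 11.2, 28.8 and 36.4 TPM. For Btg1 they were Dusp16 (0.987), a phosphatase of JNK and p38, Arid4b (0.977) and Mbnl2 (0.977). For Zfp36l1 they were Ctsk (0.986), Mpdz (0.985) and Itm2b (0.982), and for Zfp36l2 Snhg3 (0.979), Klc1 (0.943) and Luc7l3 (0.917). With 7 points, all from the same libraries, and so many genes searched, values of this height are a description and not a test.

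The wider machinery was read from 6 lists of genes, 104 kept genes in all beside the 10 regulators, each counted once, with the same background shares as above. The deadenylase list holds 14 kept genes, which are enzymes and other subunits of their complexes. Of these, of 29 kept stress granule components and of 10 kept genes of nonsense-mediated decay, 0 passed 2-fold in any condition. In osmotic stress the deadenylase list had a median log2 change of -0.46, against -0.12 for all kept genes. Cnot4, a ubiquitin ligase bound to the complex, went from 20.1 to 10.7 TPM there (-0.85), Cnot11 from 20.1 to 10.8 TPM (-0.84) and Cnot9 from 36.0 to 21.6 TPM (-0.71). The largest change of the list was a rise, that of Parn in ER stress from 18.7 to 36.1 TPM (0.91), where the median of the list was 0.15. The stress granule components had their highest median in ER stress (0.33, against 0.00 for all kept genes). Ybx3, a cold shock domain protein, went from 329 to 645 TPM there (0.97) and Atxn2l from 104 to 204 TPM (0.96). In osmotic stress, Ddx3x, an RNA helicase, was at 376 TPM against 189 in the control (0.99), and Usp10, a deubiquitinase that binds the G3bp proteins, was at 23.5 against 47.2 TPM (-0.98).

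Of 16 kept exosome genes, the 3′ to 5′ exonuclease complex and its cofactors, 3 rose in ER stress, namely Dis3, the catalytic subunit (27.1 to 68.2 TPM, log2 change 1.30), Ttc37 of the SKI complex (19.0 to 47.9 TPM, 1.29) and Exosc1. In osmotic stress 2 fell, Exosc7 (31.7 to 9.56 TPM, -1.63) and Exosc4 (18.4 to 6.57 TPM, -1.36), and in glutamine depletion 1 fell, Exosc8. The median of the list was 0.41 in ER stress, -0.38 in osmotic stress and -0.32 in hypoxia, against 0.00, -0.12 and -0.05 for all kept genes. Of 21 kept genes of decapping and 5′ decay, 1 rose in ER stress (Dcp1b, 1.33, from 1.91 TPM in the control), 1 fell there (Lsm6, -1.10) and 1 fell in osmotic stress (Edc3, a decapping enhancer, -1.08), where the median of the list was -0.21. Of 15 other kept RNA-binding decay factors, Elavl2 (1.46, from 1.38 TPM) and Ncl, nucleolin (1.21, 410 to 950 TPM), rose in ER stress, Btg2 rose in oxidative stress and fell in osmotic stress, and Tob2, a relative of the Btg proteins, rose in osmotic stress (1.07, 19.4 to 41.8 TPM). Dcp1b and Elavl2 reached the mean of 2 TPM only through the ER stress library, at 6.33 and 5.54 TPM. Their rises there are therefore bound up with the filter and add no weight to the counts.

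**Figure D4:**
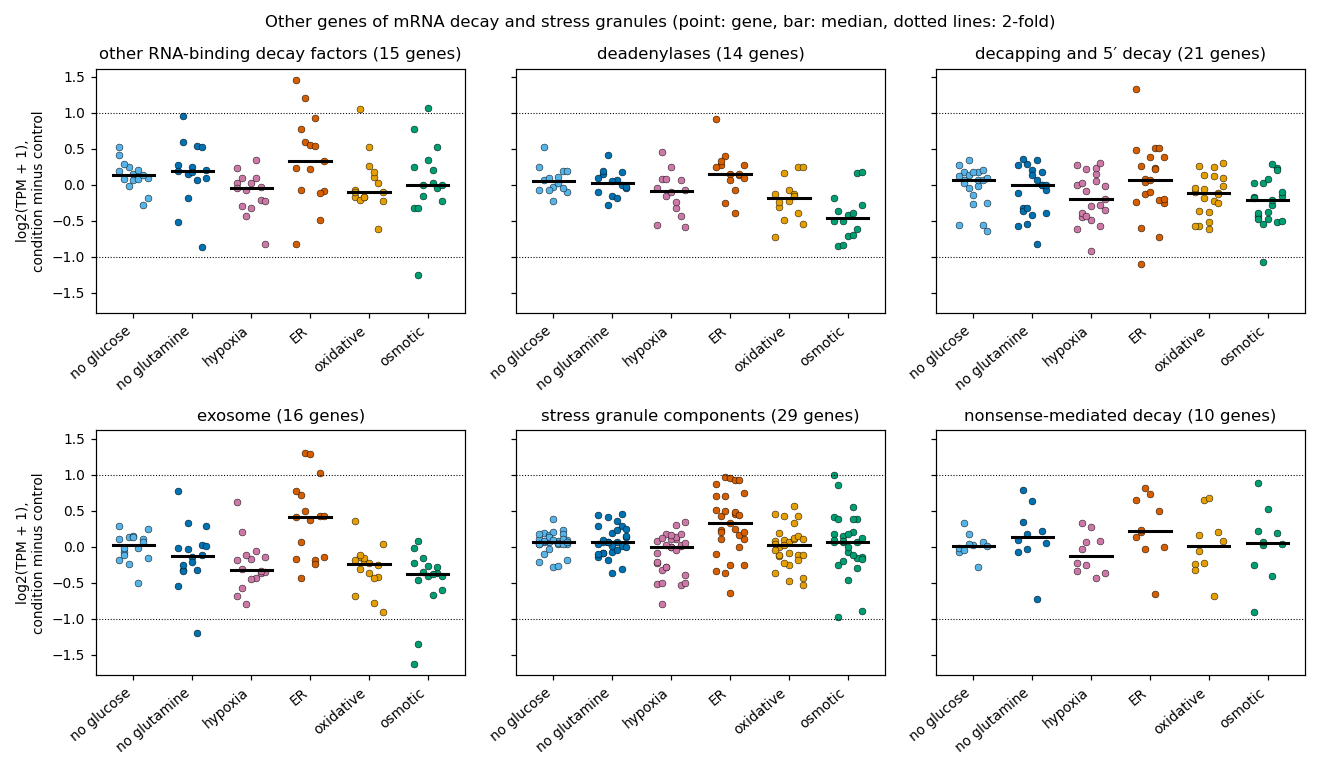
Change of log2(TPM + 1) against the control (y axis) of the kept genes of 6 lists in the 6 conditions (x axis), with 1 point per gene, a bar at the median of the list and dotted lines at 2-fold. Points beyond 2-fold occur in 3 of the lists, and in osmotic stress the medians of the deadenylase list (-0.46), the exosome (-0.38) and decapping and 5′ decay (-0.21) lie below the -0.12 of all kept genes.

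Transcripts known as targets of decay through AU-rich elements or Regnase-1 were read beside their regulators. The list holds 35 genes, of which 28 were kept, and 64.3% of those held the letters TATTTAT in their 3′ UTR. Of the 28, 10 rose and 0 fell in glutamine depletion, where 3.21% of all kept genes rose and 3.21% fell. In oxidative stress 10 rose and 1 fell (all kept genes 3.94% and 4.85%), and in osmotic stress 6 rose and 1 fell (3.08% and 8.76%). In ER stress 5 rose and 2 fell (8.6% and 11.0%), in hypoxia 3 rose and 3 fell (3.57% and 2.64%), and in glucose depletion 0 passed 2-fold (1.83% and 2.41%). The medians were 0.72 in glutamine depletion, 0.70 in oxidative stress and 0.43 in osmotic stress, against -0.09, -0.16 and -0.12 over all kept genes. They were -0.04 in ER stress, -0.09 in hypoxia and -0.01 in glucose depletion, against 0.00, -0.05 and -0.02. Fosb, at 1.03 TPM in the control, reached the mean of 2 TPM only through libraries in which it counts as risen. These were glutamine depletion (4.63 TPM), oxidative stress (6.77 TPM) and osmotic stress (6.37 TPM). Its rises there are therefore bound up with the filter and add no weight to the counts. Many of these genes are also immediate early genes, and the libraries do not separate transcription from decay.

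Ptgs2, the inducible prostaglandin synthase, was at 83.8 TPM in the control, 667 in glutamine depletion, 489 in oxidative stress and 420 in osmotic stress. Ier3, an early response gene, was at 52.9 TPM in the control, 95.9 in glutamine depletion, 209 in oxidative stress and 347 in osmotic stress. Lif, at 9.74 TPM in the control, was at 89.1 and 59.3 TPM in glutamine depletion and oxidative stress and at 7.98 TPM in osmotic stress. Vegfa was at 78.6 TPM in the control, 103 in glucose depletion, 402 in glutamine depletion, 275 in hypoxia, 170 in ER stress, 322 in oxidative stress and 106 in osmotic stress. Thus Lif stood high in the libraries in which Zfp36 stood high, whereas Ier3 was highest in osmotic stress, where Zfp36 was at 18.1 TPM. Vegfa stood high in glutamine depletion and oxidative stress, but also in hypoxia (log2 change 1.79), where Zfp36 was lowest, at 12.3 TPM.

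The chemokine Cxcl1 fell in oxidative stress, from 7.39 to 2.26 TPM (log2 change -1.36), and Ccl2 fell in hypoxia, from 64.9 to 31.1 TPM (-1.04). Fos, a classic target of Zfp36, was at 9.36 TPM in the control and between 4.51 TPM in ER stress and 14.0 TPM in oxidative stress, with no value past 2-fold. Nfkbiz, a target of Regnase-1, was at 7.24 TPM in the control, 10.4 in glutamine depletion, where Zc3h12a was highest, and 13.2 in oxidative stress. Il6 did not pass the expression filter, with 1.74 TPM in the control, 4.80 in glutamine depletion and 0.200 in osmotic stress.

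**Figure D5:**
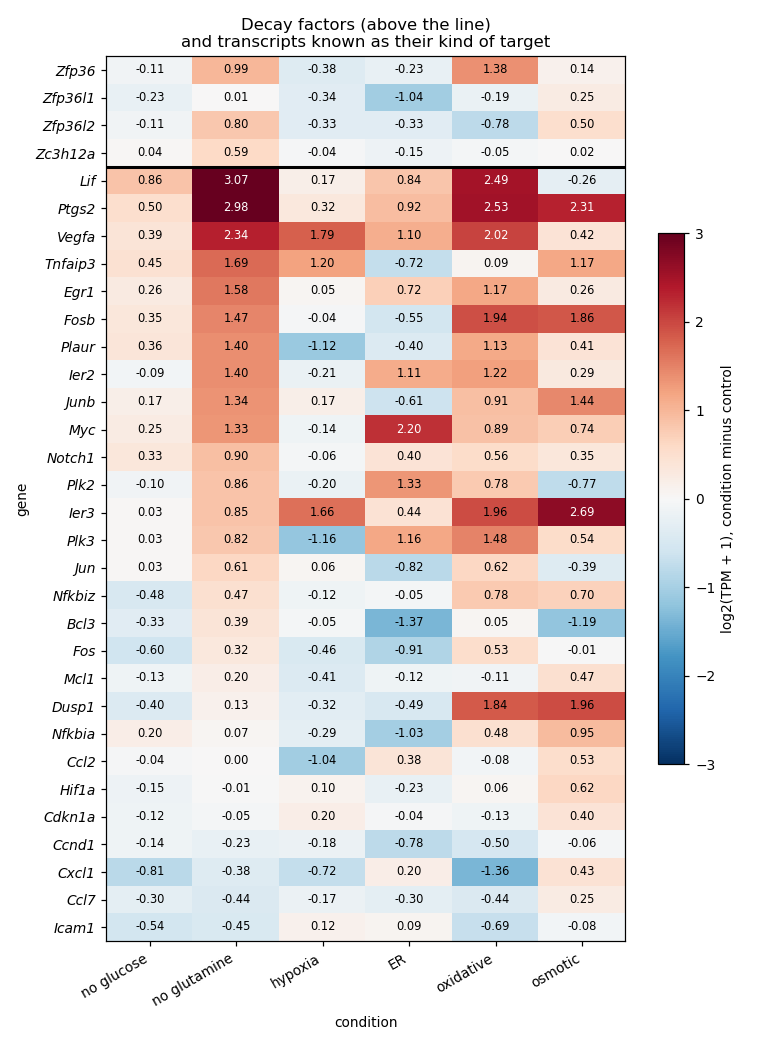
Change of log2(TPM + 1) against the control (colour and printed value) of 4 decay factors, above the line, and of the 28 kept target transcripts, ordered by their change in glutamine depletion, in the 6 conditions (x axis). Lif (3.07 and 2.49) and Ptgs2 (2.98 and 2.53) lead in glutamine depletion and oxidative stress, the columns in which Zfp36 is highest (0.99 and 1.38).

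As a check of the labelled cell type, all 10 fibroblast markers averaged 2 TPM or more, and their sum ran from 8770 to 16300 TPM. The markers of macrophages summed to 7.16 to 13.7 TPM (1 of 6 averaging 2 TPM or more, Cd68), of endothelium to 2.94 to 7.31 TPM (1 of 4, Kdr), of epithelium to 3.87 to 11.6 TPM (1 of 4, Krt18) and of skeletal muscle to 37.5 to 152 TPM (1 of 4, Acta1, with Myod1 and Myog at no more than 0.260 TPM). Erythroid markers reached 0.787 TPM at most, with Hbb-bs listed at 0. The number of genes listed above 0 ran from 19819 to 21154 per library, and mitochondrially encoded genes took between 5.09% of the TPM in ER stress and 9.25% in oxidative stress.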

How the data were processed

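Sequencing libraries were prepared by the stranded mRNA protocol and read from both ends (76 bp each). The authors pseudoaligned reads with Kallisto (version 0.43.1 in the submitters' processing notes) at default settings to the GRCm38 cDNA set. The deposited values are TPM, added up by gene. TPM keeps no read counts, so the depth is unknown and no counting interval can be given.

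From the deposited TPM, log2(TPM + 1) differences were computed, with the study's pseudocount of 1 TPM and 2-fold rule. Genes averaging 2 TPM or more were kept. With 1 library per condition no test was possible. The regulators, lists and alternatives were chosen with earlier results of these data known. All 10 regulators are named, as are 6 preset targets and the 3 genes most alike in pattern. For the lists, named genes were taken from the at most 4 with the largest change in any condition, and not all of these are named. Genes named beyond these (Exosc1 and Exosc8) were chosen after their values were seen. A symbol on several rows was counted once in the lists. The listed symbols Rqcd1 and Mtr4, which matched no row, were not analysed here. Steps were tested on simulated data. Locations and 3′ UTRs came from GENCODE M21, promoters from RefSeq (GRCm38.p6), with 9 of 10 regulators matched. Tables were made with pandas 2.3.3 (Python 3.11.15, numpy 2.4.6) and plots with matplotlib 3.10.9.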

Additional observations from a re-analysis of the deposited data

How the results depend on the processing

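With 1 library per condition, no library could be left out. No paired analysis was possible because the groups share no replicates. Of the 60 changes of the 10 regulators, 45 kept their sign under all planned settings (pseudocounts of 0.1 and 5 TPM, centring, removal of mitochondrially encoded genes, and the median of the 7 libraries as reference), as did 11 of the 13 beyond 0.5, the exceptions being Btg1 in glutamine depletion and hypoxia, which were at 0.00 against the median of the 7 libraries. Regulators past 2-fold in glutamine depletion (0) were 1 with a pseudocount of 0.1 TPM, after centring and without mitochondrially encoded genes. They were also 1 against the glucose depletion library (chosen after seeing the data). Under these settings 3.12% to 3.87% of all kept genes rose and 2.37% to 4.52% fell. At 1.5-fold 3 regulators passed, all upward, where 7.47% of all kept genes rose and 10.6% fell. Regulators past 2-fold in ER stress (2) were 0 with a pseudocount of 5 TPM, against the median of the 7 libraries, at 3-fold and against the glucose depletion library. Under these settings 3.39% to 9.02% of all kept genes rose there and 4.31% to 9.71% fell. The 1 in oxidative stress became 3 at 1.5-fold, 2 up and 1 down, where 7.27% of all kept genes rose and 16.2% fell. It became 0 at 3-fold, where 2.3% rose and 1.6% fell. Of the 104 other genes of mRNA decay and stress granules, those past 2-fold (0 in glucose depletion, 1 in glutamine depletion, 0 in hypoxia, 7 in ER stress, 1 in oxidative stress and 5 in osmotic stress) were 1, 9, 8, 28, 10 and 19 at 1.5-fold. Over all kept genes, 19.0% rose and 21.3% fell at 1.5-fold in ER stress, and 6.56% and 19.5% in osmotic stress. The shares were 3.47% and 6.23% in glucose depletion and 7.23% and 8.1% in hypoxia, with glutamine depletion and oxidative stress given above. At 3-fold the counts of the 104 genes were 0 in glutamine depletion (all kept genes 1.61% up and 1.27% down) and ER stress (3.39% and 4.31%). They were 0 in oxidative stress (2.3% and 1.6%) and 1 in osmotic stress (1.65% and 3.37%). A pseudocount of 5 TPM gave 4 in ER stress (5.8% up and 6.03% down), 0 in oxidative stress (2.62% and 1.87%) and 3 in osmotic stress (1.9% and 3.27%). In glutamine depletion centring gave 2 (3.69% up and 2.47% down) and the median of the 7 libraries gave 0 (2.22% and 1.04%). No filter and a mean of at least 10 TPM kept every count within 1.5 times. The 7 in ER stress include Dcp1b and Elavl2, which the filter kept only through that library. The cause of these shifts was not tested.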
